A study of Homo sapiens with 12 samples.

Results

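The proteasome is the protease that degrades proteins marked with ubiquitin. Its core particle is a barrel of alpha and beta rings, in which 3 beta subunits cut peptide bonds, and its regulatory particle, a base with an ATPase ring and a lid, recognises, unfolds and feeds in the substrates. In many cells a shortage of proteasome activity lets the transcription factor NFE2L1 reach the nucleus and raise the subunit genes together, and dividing tumour cells depend on a steady supply of proteasomes. The genes described here are those of the core and regulatory particles, their assembly chaperones, their activators and their inhibitor. They were chosen by name (the PSMA, PSMB, PSMC, PSMD, PSME, PSMG and PSMF series, with POMP and ADRM1), which gave 50 of the 49651 genes with counts.

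Messenger RNA was sequenced from D283, a medulloblastoma cell line grown in 1 medium for both groups. The control group carried a scrambled control and kept ABL1 and ABL2. In the other group ABL1 and ABL2, which encode the non-receptor tyrosine kinases ABL and ARG, were inactivated; the sources used here do not name the method. Each group had 3 libraries, each read on 2 lanes that were summed, and libraries held between 33505903 and 49034159 counts. All results concern 1 line. The labels leave it unsaid if libraries came from separate cultures, so p-values measure the spread between libraries, which may be technical.

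Levels are CPM, counts scaled to the library total and then by trimmed mean of M values (TMM), as mean ± SD of 3 libraries, and log2 fold changes (inactivated over control) carry their SE. A gene is said to have risen, fallen or changed where it had an edgeR quasi-likelihood adjusted p of at most 0.05 over all 14704 genes tested. In bulk RNA, fewer cells of a type and less RNA per cell cannot be told apart. ABL1 was at 157, 148 and 154 CPM in control libraries and at 62.1, 62.3 and 61.2 CPM in those labelled inactivated, a log2 fold change of -1.31 ± 0.0426. ABL2 was at 144, 136 and 134 CPM against 97.6, 112 and 102 CPM (-0.41 ± 0.0511), so both targets were lower in every inactivated library. Of 8 genes that mark D283 and Group 3 medulloblastoma, 7 were at 1 CPM or more, whereas 0 of 5 immune markers were. The exception, NRL, was listed at 0 and has an alternate copy of the kind described for the untested members. Among the 7, IMPG2 rose from 66.7 ± 3.63 to 316 ± 18.4 CPM and CRX from 51.5 ± 4.51 to 95.8 ± 2.87 CPM. MYC, GABRA5 and NPR3 also rose, OTX2 fell from 830 ± 16.1 to 665.5 ± 11.4 CPM and PDE1C had no call. Of 3 endothelial markers 1 passed 1 CPM, VWF, at 2.015 CPM in control and 1.86 CPM in inactivated cells, with no call. Of 4 neural progenitor markers 2 passed 1 CPM in both groups, and the list summed to 384 to 394 CPM in control and 543 to 549 CPM in inactivated libraries. Within it NES rose from 138 ± 4.69 to 339 ± 0.160 CPM, PROM1 fell from 251 ± 9.14 to 204.5 ± 3.96 CPM and SOX2 was listed at 0. Of 5 fibroblast markers 3 passed 1 CPM, with sums of 42.7 to 46.2 CPM and 33.4 to 36.9 CPM. COL1A1 rose (8.11 to 15.1 CPM) while PDGFRB (32.8 to 18.9 CPM) and DCN (3.27 to 0.979 CPM) fell. Of 4 glial markers 1 passed 1 CPM, OLIG2, which fell from 4.49 to 2.45 CPM, and the list summed to 3.86 to 5.09 CPM in control and 2.49 to 2.60 CPM in inactivated libraries. The part of these other markers in the results below was not tested.

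Most proteasome genes stayed near their control level in the inactivated cells, and the larger changes were increases of genes on chromosomes 6 and 17. Of the 50 genes, 42 had enough reads to be tested. In edgeR, 18 changed (42.9%), against 59.3% of all genes tested, with 10 higher (background 29.6%) and 8 lower (background 29.7%). The 24 others did not pass the threshold. The median log2 fold change of the 42 genes was -0.000398, against 0.00307 for all genes tested. The median size of the change, without regard to direction, was 1.06-fold for the 42 genes and 1.21-fold for all genes tested. Among the 5993 genes with a mean of 30 CPM or more, where counting error is small, the median size was 1.13-fold and 66.1% changed.

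Read against a minimum size, 7 of the 42 (16.7%) changed by 1.2-fold or more, all of them higher, against 43.5% of all genes tested (22.8% higher and 20.7% lower). Of the 42 members, 39 had a mean of 30 CPM or more. At that level 15.4% of the members changed by 1.2-fold or more, against 36.3% of genes tested. Against a null of 1.2-fold in place of no change, 7 members passed, against 32.7% of all genes tested. Among members the count lower by 1.2-fold or more was 0 in edgeR at adjusted and at unadjusted p, and 0 in DESeq2 and limma-voom. A change of 1.5-fold or more was reached by 1 gene, the assembly chaperone PSMG4, against 24.0% of all genes tested. Of the 39 members at 30 CPM or more 0 reached it, against 11.8% of genes tested at that level. The control and inactivated libraries did not overlap for 20 of 42 members (47.6%), against 63.2% of all genes tested and 69.1% of those at 30 CPM or more. These shares describe the list, and the difference from other genes was not given a test.

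**Figure D1:**
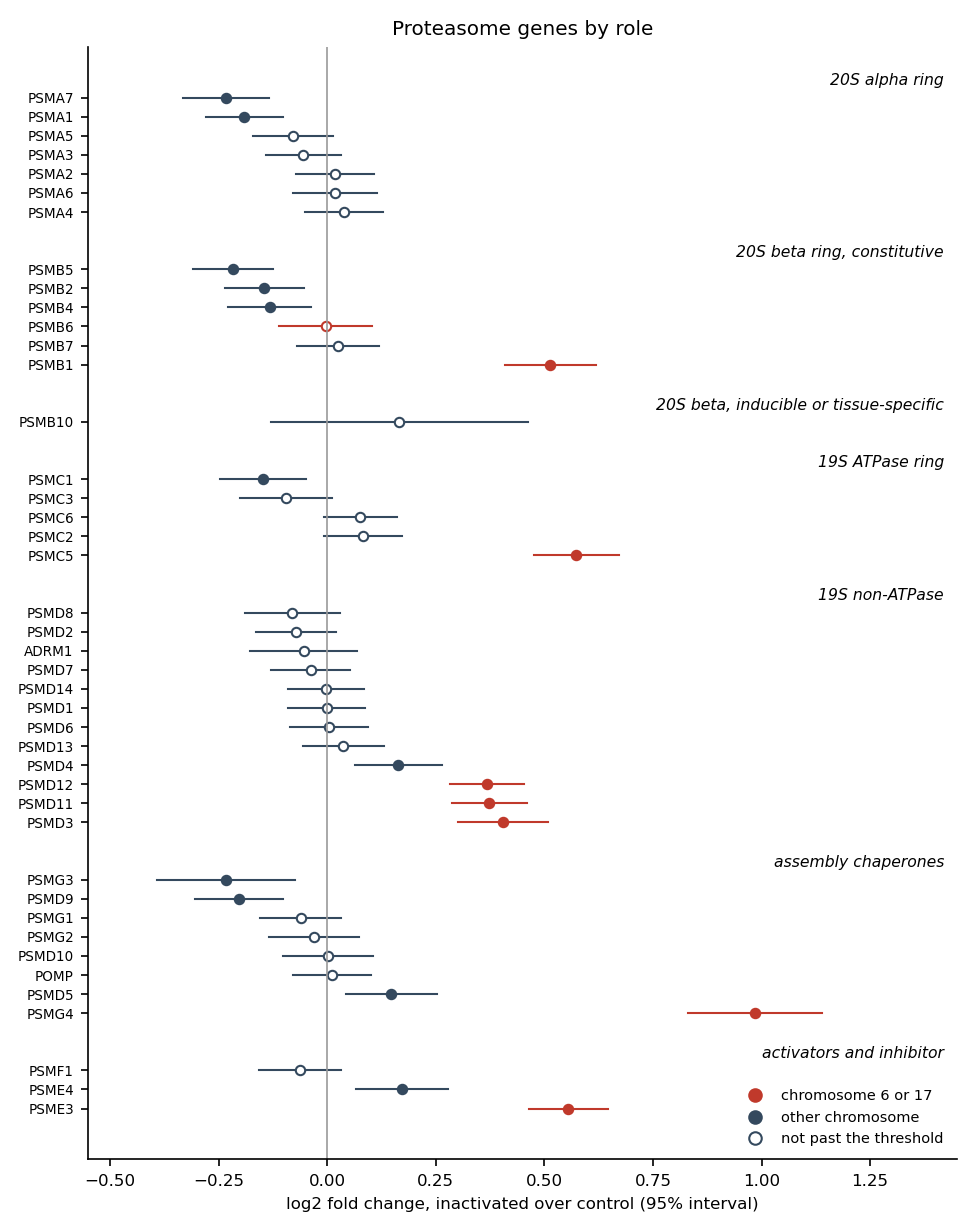
Log2 fold change of each tested proteasome gene (inactivated over control, x axis) with its 95% interval, grouped by role on the y axis, with chromosomes 6 and 17 in red and open circles for genes not past the threshold. Most points lie close to 0, and the 7 genes furthest to the right, from PSMD12 at 0.37 to PSMG4 at 0.99, are on chromosomes 6 and 17.

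The alpha ring forms the gate of the core particle. Of its 7 tested genes, 2 fell and 5 did not pass the threshold, with log2 fold changes from -0.23 to 0.039, and the share that fell was near the 29.7% of all genes tested. PSMA7 was at 330, 335 and 339 CPM in control libraries and 303, 266 and 286 CPM in inactivated ones, a log2 fold change of -0.23 ± 0.0469 (adjusted p = 0.00029). PSMA1 was at 252, 268 and 264 CPM against 229, 222 and 235 CPM (-0.19 ± 0.042, adjusted p = 0.000671). For both genes every inactivated library lay below every control library, and the means were lower by factors of 0.851 and 0.876. PSMA2, PSMA3, PSMA4, PSMA5 and PSMA6 had no call and log2 fold changes between -0.079 and 0.039. The summed level of the 7 genes was 1609 ± 31.2 CPM in control and 1523 ± 62.5 CPM in inactivated cells.

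The beta ring holds the active sites: PSMB6 encodes the subunit with caspase-like activity, PSMB7 that with trypsin-like activity and PSMB5 that with chymotrypsin-like activity, which is the main target of bortezomib. PSMB5 was at 246, 244 and 247 CPM in control libraries and 216, 199 and 219 CPM in inactivated ones (log2 fold change -0.22 ± 0.0437, adjusted p = 0.000303). The groups did not overlap, and the mean was lower by a factor of 0.861. PSMB6 was at 68.6, 67.5 and 69.8 CPM against 71.1, 63.0 and 71.6 CPM, and PSMB7 at 253, 254 and 265 CPM against 274, 247 and 264 CPM. Neither passed the threshold, and the 95% intervals of the log2 fold change ran from -0.11 to 0.10 for PSMB6 and from -0.069 to 0.12 for PSMB7. Among the 3 catalytic genes 1 thus fell and the other two had overlapping groups. Differences between them were not tested.

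Among the non-catalytic beta genes, PSMB2 fell from 294 ± 9.68 to 266 ± 10.3 CPM and PSMB4 fell from 379 ± 4.40 to 346 ± 20.2 CPM. PSMB4 lost its call without inactivated replicate 2 (adjusted p = 0.0767). PSMB1 was the exception in this ring. It was at 238, 247 and 255 CPM in control libraries and 375, 325 and 355 CPM in inactivated ones, a rise of 1.43-fold (log2 0.51 ± 0.0499, adjusted p = 4.36e-08) with no overlap. The summed level of the 6 tested constitutive beta genes was 1491 ± 30.3 CPM in control and 1505 ± 82.6 CPM in inactivated cells.

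The inducible subunits PSMB8, PSMB9 and PSMB10 replace the catalytic ones in the immunoproteasome, which favours peptides for MHC class I. PSMB10 was low, at 4.39, 3.34 and 4.73 CPM in control and 5.44, 3.97 and 4.65 CPM in inactivated libraries. The groups overlapped, and the 95% interval of its log2 fold change was -0.13 to 0.46. PSMB8 and PSMB9 were listed at 0 in all 6 libraries and are treated with the other untested genes below.

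In the regulatory particle the ATPase ring unfolds the substrate. Of its 5 tested genes, 1 rose, 1 fell and 3 did not pass the threshold (over all genes tested 29.6% rose and 29.7% fell). PSMC5 was at 208, 217 and 228 CPM in control libraries and 333, 307 and 333 CPM in inactivated ones, a rise of 1.49-fold (log2 0.57 ± 0.0467, adjusted p = 3.65e-09). PSMC1 was at 154, 166 and 171 CPM against 153, 141 and 150 CPM (-0.15 ± 0.0471, adjusted p = 0.0112), and its groups did not overlap although the nearest libraries were close. With the reads of lane 2 by themselves PSMC1 did not pass (adjusted p = 0.0745), and it lay 0.071 above the median of its neighbours within 5 Mb. PSMC5 overlaps FTSJ3 on the other strand, at 146 CPM in control and 246 CPM in inactivated cells, and PSMC1 overlaps NRDE2 (32.5 and 24.9 CPM). The strand setting of the counting is not stated in these sources, so reads of such pairs cannot be told apart. The same holds for genes named further below that overlap a gene on the other strand, among them ERAP1, GPS1, TCP1, UCHL5 and AKIRIN2. PSMC2, PSMC3 and PSMC6 had no call, with log2 fold changes of 0.08, -0.10 and 0.08. Altogether 7 tested members overlap another gene of at least 1 CPM, and PSMC5 and PSMC1 were the ones among them that changed.

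The non-ATPase subunits form the lid and the rest of the base, with ubiquitin receptors (PSMD4, ADRM1) and the deubiquitinase PSMD14. Of 12 genes, 4 rose and 8 did not pass the threshold, with log2 fold changes between -0.080 and 0.40, and the share that rose was near the 29.6% of all genes tested. PSMD3, a lid scaffold subunit, was at 382, 391 and 405 CPM in control libraries and 543, 479 and 537 CPM in inactivated ones (1.32-fold, log2 0.40 ± 0.0492, adjusted p = 8.99e-07). PSMD11, another lid subunit, was at 410, 410 and 411 CPM against 541, 515 and 539 CPM (1.295-fold, log2 0.37 ± 0.0408, adjusted p = 2.2e-07). Both pairs of groups were far apart compared with their spread. PSMD12, also of the lid, rose from 295 ± 7.89 to 381 ± 4.03 CPM, and PSMD4 rose from 243 ± 8.70 to 272 ± 16.5 CPM. PSMD14, PSMD1 and PSMD6 had no call and log2 fold changes within 0.01 of 0. The remaining genes, PSMD2, PSMD7, PSMD8, PSMD13 and ADRM1, lay between -0.080 and 0.04, also without a call.

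Chaperones that assemble the particles, and leave before they are active, included the gene with the largest change. PSMG4, which helps to order the alpha ring, was at 9.12, 7.95 and 8.46 CPM in control libraries and 16.4, 17.2 and 16.95 CPM in inactivated ones. This rise of 1.98-fold (log2 0.99 ± 0.0736, 95% interval 0.83 to 1.14, adjusted p = 1.06e-09) came with no overlap and a small spread in both groups. PSMG3, its partner in the same step, went the other way, from 14.5, 14.1 and 15.5 CPM to 13.7, 11.6 and 12.3 CPM (-0.23 ± 0.0757, adjusted p = 0.0128). PSMG3 lost its call without control replicate 3 (adjusted p = 0.0575) or inactivated replicate 2 (0.0586). PSMD9, a chaperone of the ATPase ring, was at 48.0, 47.4 and 48.9 CPM against 41.2, 40.6 and 43.6 CPM (-0.20 ± 0.048, adjusted p = 0.00129). PSMD5, which acts on the same ring, rose from 48.4 ± 1.07 to 53.6 ± 3.04 CPM, a call lost without control replicate 1 (adjusted p = 0.0526) or inactivated replicate 3 (0.118). PSMD10, PSMG1 and PSMG2 had no call, and PSMG1 (-0.06) and PSMG2 (-0.03) were slightly lower by value. POMP, the maturation factor of the beta ring, was at 218, 226 and 229 CPM against 234, 216 and 229 CPM, with overlapping groups and a 95% interval of the log2 fold change of -0.080 to 0.10.

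Activators open the core particle without the ATPase ring. PSME3, which forms the nuclear activator PA28 gamma, was at 290, 285 and 269 CPM in control libraries and 409, 404 and 428 CPM in inactivated ones, a rise of 1.47-fold (log2 0.56 ± 0.0437, adjusted p = 2.22e-09). PSME4, which encodes the activator PA200, was at 280, 271 and 251 CPM against 283, 318 and 302 CPM (1.13-fold, log2 0.17 ± 0.0501, adjusted p = 0.00638). The PSME3 groups were widely separated, whereas those of PSME4 nearly touched, and PSME4 lost its call without control replicate 3 (adjusted p = 0.056). PSMF1, which encodes the inhibitor PI31, was at 123, 122 and 126 CPM against 118, 113 and 125 CPM, with overlapping groups and no call (-0.06 ± 0.0448). The summed level of these 3 genes was 672 ± 23.8 CPM in control and 833 ± 23.02 CPM in inactivated cells.

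**Figure D2:**
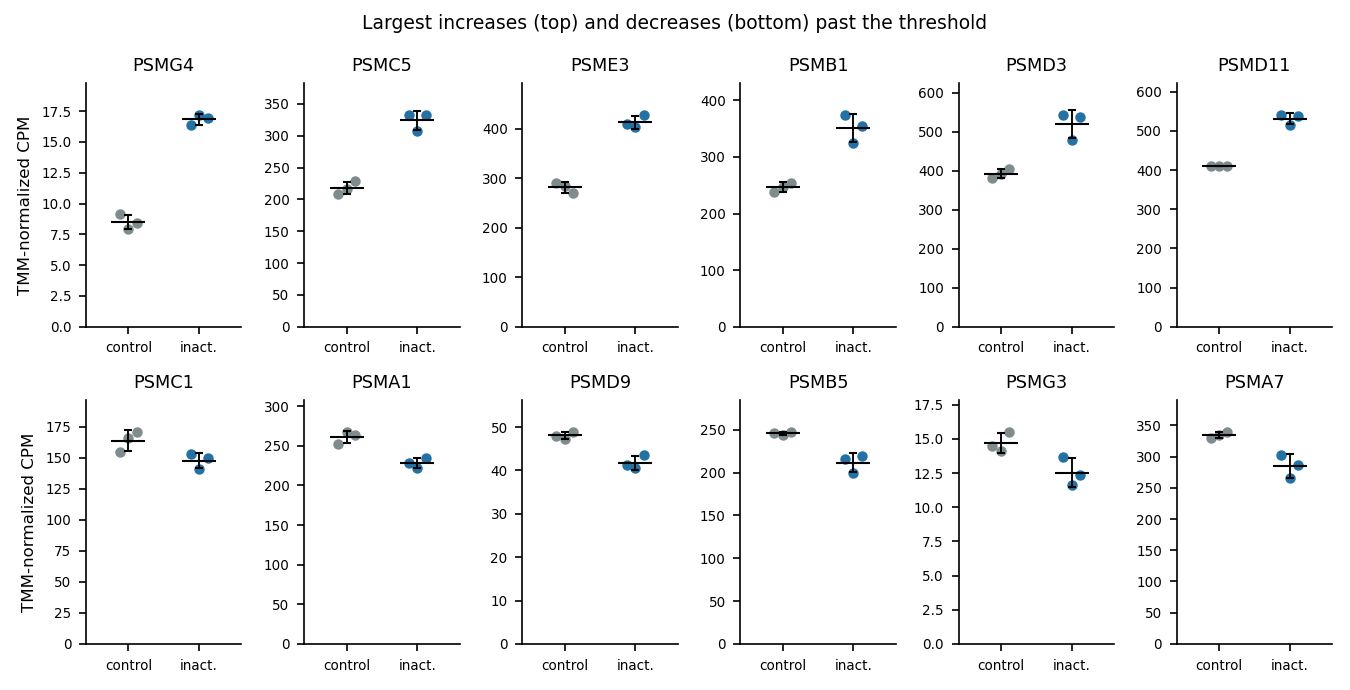
TMM-normalized CPM (y axis, from 0) in each of the 3 control (grey) and 3 inactivated (blue) libraries for the 6 members with the largest increases (top) and the 6 with the largest decreases (bottom), with mean and SD bars. The groups do not overlap in any panel, and the top panels, led by PSMG4 at 1.98-fold, show wider gaps than the bottom ones, where PSMC1 has its nearest libraries at 154 and 153 CPM.

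Within the inactivated group, replicate 2 was the lowest library for 35 of the 42 members (83.3%), against 39.0% of all genes tested. At 30 CPM or more the shares were 84.6% of members and 45.9% of genes tested. Replicate 2 was also the library with the most counts. Without it 17 members changed, 11 higher and 6 lower, against 58.4% of all genes tested.

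The larger increases lay on 2 chromosomes. On chromosome 6, PSMG4 lies at 3254404 to 3268049 and PSMB1 at 170535120 to 170553307 (GRCh38.p14). PSMD11 (32444510 to 32483319), PSMD3 (39980807 to 39997959), PSME3 (42833397 to 42843760), PSMC5 (63827431 to 63832019) and PSMD12 (67337916 to 67366577) lie on the long arm of chromosome 17. Of the 8 tested members on these 2 chromosomes 7 rose, with a median log2 fold change of 0.459 over the 8. The eighth, PSMB6, lies on the short arm of chromosome 17 at 4796164 to 4798495. Of the 34 members elsewhere, 3 rose (PSMD4, PSMD5 and PSME4), 8 fell and 23 did not pass the threshold, with a median of -0.0344 (over all genes tested 29.6% rose and 29.7% fell). The choice of these 2 chromosomes was made after the values were seen.

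Genes around the raised members were raised too. Over the other tested genes of chromosome 6 (687 genes) the median log2 fold change was 0.512, and 68.4% were higher and 9.75% lower. Over those of chromosome 17 (817 genes) the median was 0.374, with 60.1% higher and 12.6% lower. Within 5 Mb of each member, the median of other tested genes was at least 0.2 for exactly the same 7 members, and all 7 rose. On chromosome 17 the window of PSMD3 overlaps those of PSMD11 and PSME3, and the window of PSMC5 overlaps that of PSMD12. The 7 windows are therefore not separate observations. For the other 35, of which 3 rose and 8 fell, the neighbours' median was below 0.2. It was 0.52 around PSMC5, 0.50 around PSME3, 0.49 around PSMD3, 0.27 around PSMD11, 0.74 around PSMB1 and 0.05 around PSMB6. After subtraction of the neighbours' median, PSMC5 differed by 0.051, PSME3 by 0.058, PSMD11 by 0.10 and PSMG4 by 0.61, whereas PSMB1 (-0.22), PSMD3 (-0.091) and PSMD12 (-0.14) were then below their neighbours. These differences have no test, and whether the number of copies of these chromosome regions differed between the groups was not tested.

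**Figure D3:**
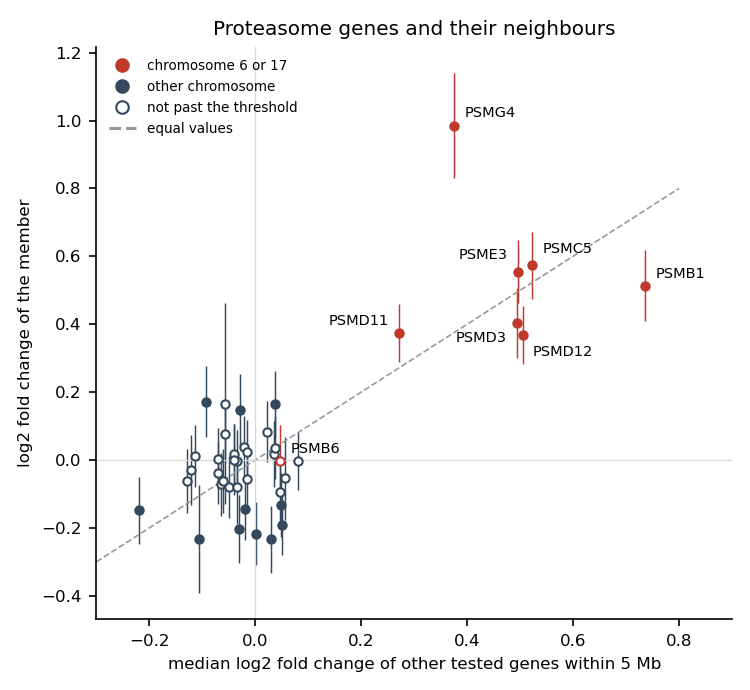
Log2 fold change of each tested proteasome gene (y axis) against the median log2 fold change of the other tested genes within 5 Mb (x axis), with the line of equal values. The 7 members to the right of 0.2 are all on chromosomes 6 and 17 (red), and the one furthest from the line is PSMG4, 0.61 above it. Vertical bars are 95% intervals.

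Summed over all 42 tested members, the control libraries reached 8919, 9087 and 9110 CPM and the inactivated libraries 9755, 9176 and 9712 CPM, every one of them above every control library. Members on chromosomes 6 and 17 summed to 1921 ± 27.7 CPM in control and 2607 ± 99.3 CPM in inactivated cells, a ratio of 1.357. The other members summed to 7118 ± 78.3 and 6941 ± 224 CPM, a ratio of 0.9752.

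Per kilobase of exon, levels of the subunits differed widely in both groups. The length used is the sum of all annotated exons of a gene, which can exceed that of the transcript the cells make, so a gene with long annotated exons, such as PSMC1 (4522 bases) or PSMA5 (3815 bases), comes out low beside one such as PSMB4 (918 bases). In CPM without length the lowest tested constitutive core gene was PSMB6, at 68.6. Among 13 constitutive core genes the control level ran from 49.5 CPM per kb for PSMA5 to 413 for PSMB4, with a median of 177. Among 17 regulatory particle genes it ran from 36.2 CPM per kb for PSMC1 to 267 for PSMD14, with a median of 103. In inactivated cells the range was 46.9 (PSMA5) to 395 CPM per kb (PSMB1) for the core and 32.7 (PSMC1) to 267 (PSMD14) for the regulatory particle. Control libraries overlapped between some neighbours in the order, such as PSMB1, PSMD14 and PSMB7, but not at either end, between PSMB4 and PSMA7 or between PSMD7 and PSMC1. The ratio of highest to lowest was 8.34 and 8.42 for the core genes in the control and inactivated groups, and 7.39 and 8.17 for the regulatory ones.

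**Figure D4:**
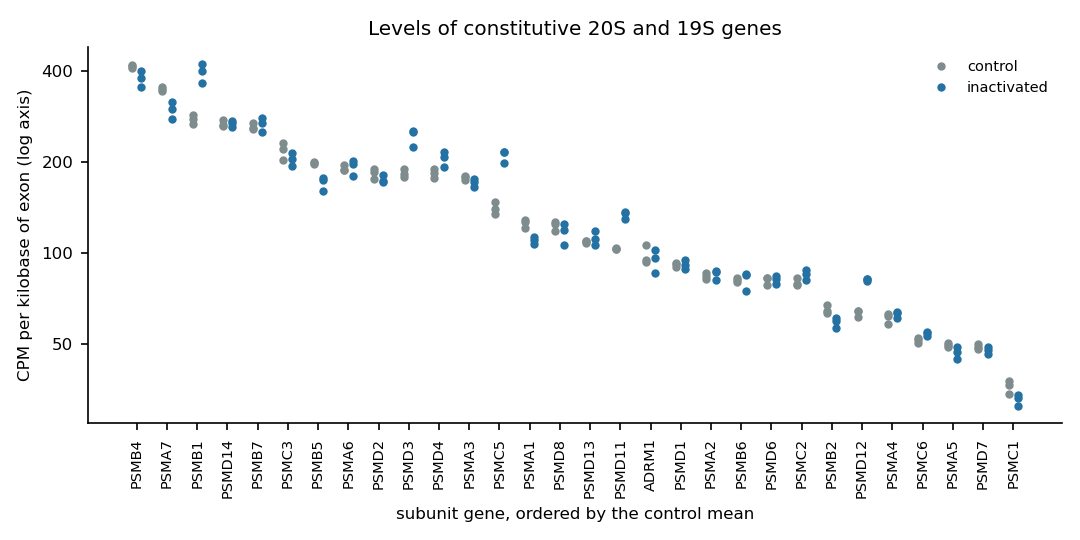
Level in CPM per kb of exon (log axis) in each control (grey) and inactivated (blue) library for the 30 tested constitutive core and regulatory particle genes, ordered by the control mean. PSMB4 is first at 413 and PSMC1 last at 36.2, and the blue points stand clear above the grey for PSMB1, PSMD3, PSMC5, PSMD11 and PSMD12.

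Promoters of the members were searched for the core of the antioxidant response element (TGACNNNGC, both strands), the site through which NFE2L1 and NFE2L2 act. The window was the 250 bases before the RefSeq start (GRCh38.p14), found for 44 of the 50 members and not for PSMB1, PSMD4, PSMB6, PSMA7, PSMB7 and PSMG3. For 38 of the 44 this start was also the one in the count table. The letters occurred in 12 of the 44 windows (27.3%), against 11.1% of all 26402 promoter windows and 12.2% of the 11059 windows of genes tested. The 44 windows include the 8 untested members, of which PSMB3, PSMB9, PSME1 and PSME2 hold a match. The share among genes tested is therefore not a like comparison. By outcome, over tested members with a window, they were in 4 of 8 that rose, 1 of 6 that fell and 3 of 22 that did not pass the threshold. Of the 4, PSMD3 and PSMD12 lie on chromosome 17 and were below their neighbours' median. PSMD5 and PSME4 lost their calls in at least 1 fit with a library left out. Whether the letters go with the outcome was not tested. The 5 windows of changed members that hold a match are the ones shown, 5′ to 3′ with the match in capitals. They are PSMD3 (chr17:39980557-39980806, plus strand), PSMD12 (chr17:67366578-67366827, minus strand), PSMD5 (chr9:120842923-120843172, minus strand) and PSME4 (chr2:53970994-53971243, minus strand), which rose, and PSMD9 (chr12:121888540-121888789, plus strand), which fell.
PSMD3: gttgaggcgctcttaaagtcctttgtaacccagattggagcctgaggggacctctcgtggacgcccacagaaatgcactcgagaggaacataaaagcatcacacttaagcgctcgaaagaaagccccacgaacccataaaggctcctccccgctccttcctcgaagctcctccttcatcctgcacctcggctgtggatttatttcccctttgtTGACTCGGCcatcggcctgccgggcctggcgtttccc
PSMD12: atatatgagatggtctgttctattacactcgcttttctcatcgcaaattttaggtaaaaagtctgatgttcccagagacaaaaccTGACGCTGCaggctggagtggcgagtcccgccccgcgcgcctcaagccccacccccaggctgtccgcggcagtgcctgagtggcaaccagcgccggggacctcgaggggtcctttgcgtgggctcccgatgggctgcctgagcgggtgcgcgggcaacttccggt
PSMD5: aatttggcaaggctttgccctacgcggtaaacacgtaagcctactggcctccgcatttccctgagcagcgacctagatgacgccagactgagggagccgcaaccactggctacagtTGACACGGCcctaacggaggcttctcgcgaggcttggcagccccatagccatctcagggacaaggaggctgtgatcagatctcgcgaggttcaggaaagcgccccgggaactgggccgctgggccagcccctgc
PSME4: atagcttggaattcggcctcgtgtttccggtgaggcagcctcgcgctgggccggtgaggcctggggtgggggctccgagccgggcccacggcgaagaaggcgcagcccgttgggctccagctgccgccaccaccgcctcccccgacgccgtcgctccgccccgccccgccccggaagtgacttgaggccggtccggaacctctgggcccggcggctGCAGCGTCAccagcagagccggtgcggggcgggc
PSMD9: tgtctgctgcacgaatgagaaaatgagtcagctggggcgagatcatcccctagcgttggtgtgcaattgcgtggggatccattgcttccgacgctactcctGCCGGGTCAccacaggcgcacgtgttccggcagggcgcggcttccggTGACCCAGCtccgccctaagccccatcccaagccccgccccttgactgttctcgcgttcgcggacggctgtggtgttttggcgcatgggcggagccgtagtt

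The match begins 37 bases before the start in PSMD3, 34 in PSME4, 134 in PSMD5 and 165 in PSMD12, and PSMD9 has matches at 149 and 102 bases. None of these matches overlapped another motif searched. Of the other motifs, CCAAT was in 43.2% of the members' windows, untested members included, and 35.3% of those of tested genes. In the same sets the ETS core CCGGAAG was in 25.0% and 15.4%, and the nuclear respiratory factor site in 6.82% and 10.4%. The E-box CACGTG was in 6.82% and 8.64%. A match describes letters, not binding.

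Genes that control the making and placing of proteasomes moved in both directions. Of 17 tested genes for their transcription and nuclear import, 8 rose, 4 fell and 5 did not pass the threshold, against 59.3% of all genes tested that changed (29.6% higher, 29.7% lower). Against the 1.2-fold null 3 of the 17 passed, where 32.7% of all genes did. VCP, the ATPase p97 that pulls proteins from membranes for degradation and is needed to release NFE2L1, was at 456, 437 and 426 CPM in control libraries and 772, 745 and 786 CPM in inactivated ones (log2 0.80 ± 0.0436, adjusted p = 9.84e-12). Its neighbours within 5 Mb on chromosome 9 had a median of 0.0059. NFE2L1 was at 277, 269 and 289 CPM against 327, 315 and 330 CPM (0.22 ± 0.0423, adjusted p = 0.000188), on chromosome 17 with a neighbours' median of 0.52. Its relative NFE2L2 rose from 167 ± 4.27 to 198 ± 2.64 CPM. BACH1, a repressor at antioxidant response elements, rose from 65.2 ± 2.48 to 80.2 ± 2.695 CPM. DDI2, the protease that cleaves NFE2L1, was at 161, 153 and 148 CPM against 126, 156 and 141 CPM and had no call (-0.13 ± 0.0589). NGLY1, the glycanase that edits NFE2L1, fell from 53.0 ± 3.30 to 44.0 ± 0.913 CPM. IPO9 and AKIRIN2, which bring proteasomes into the nucleus, rose from 254 ± 10.8 to 344 ± 13.5 CPM and from 101 ± 4.82 to 113 ± 4.93 CPM, with neighbours' medians of 0.41 and 0.51.

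Among 19 proteasome-bound deubiquitinases, ligases and adaptors, 2 rose, 5 fell and 12 did not pass the threshold (59.3% of all genes tested changed), and 1 passed against the 1.2-fold null. The deubiquitinase UCHL5 rose from 132 ± 3.83 to 167 ± 3.54 CPM and ZFAND5, a proteasome activator, from 304 ± 10.5 to 366 ± 4.95 CPM. The bound thioredoxin TXNL1 fell from 184 ± 0.742 to 151 ± 4.11 CPM. SEM1, the small lid subunit whose name lies outside the series used to choose members, was at 130, 144 and 148 CPM against 144, 134 and 135 CPM and had no call. Of the 6 ubiquitin and E1 genes, 0 changed in edgeR, with 0 at an unadjusted p under 0.05 and 0 in DESeq2 or limma-voom, and 1 without inactivated replicate 1. The ubiquitin genes with the highest levels, RPS27A and UBB, were at 549 ± 8.35 and 541 ± 15.8 CPM in control and 524 ± 17.2 and 508 ± 34.6 CPM in inactivated cells.

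Of 12 genes for p97 and its cofactors, 3 rose, VCP among them, 4 fell and 5 did not pass the threshold, a share of changed genes near the 59.3% over all genes tested, and 3 passed against the 1.2-fold null. NPLOC4, the substrate adaptor of p97, rose from 184 ± 3.73 to 264 ± 5.26 CPM, on chromosome 17 with a neighbours' median of 0.45. DERL1 fell from 224 ± 2.53 to 172 ± 3.54 CPM and NSFL1C from 128 ± 3.39 to 105 ± 2.72 CPM. Of the partners of the immunoproteasome in loading MHC class I, 4 of 8 were tested and 3 fell, against 29.7% lower over all genes tested. ERAP1, which trims peptides, fell from 33.2 ± 0.811 to 19.1 ± 0.917 CPM, and B2M, the light chain of MHC class I, from 19.2 ± 1.27 to 12.7 ± 0.420 CPM. ERAP1 overlaps CAST and ERAP2 on the other strand. B2M has an alternate copy of the kind described for the untested members, so its fall rests on reads whose treatment is not stated. The untested TAP1, TAP2 and TAPBP have such copies too, so nothing can be read for them. NLRC5, also untested, has no alternate copy and held 3, 2 and 3 reads in control and 1, 2 and 0 reads in inactivated libraries.

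Other large complexes are given beside the proteasome, where 59.3% of all genes tested changed (29.6% higher, 29.7% lower). Of 10 COP9 signalosome genes, which resemble the proteasome lid, 2 rose, 3 fell and 5 did not pass the threshold, and 3 passed against the 1.2-fold null. GPS1 rose from 66.8 ± 1.14 to 117 ± 10.2 CPM on chromosome 17, and COPS5, the catalytic subunit, fell from 90.8 ± 2.02 to 58.0 ± 2.17 CPM. Of 12 tested genes of the translation factor eIF3, 3 rose and 9 did not pass the threshold, and the calls of all 3 were lost against the 1.2-fold null. Of 7 tested genes of the CCT chaperonin, 4 rose and 3 did not pass, with 2 changed without control replicate 3 or without inactivated replicate 3 and 1 against the 1.2-fold null. TCP1 on chromosome 6 rose from 578 ± 10.3 to 917 ± 20.1 CPM, with a neighbours' median of 0.52. Differences between these complexes and the proteasome were not tested.

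**Figure D5:**
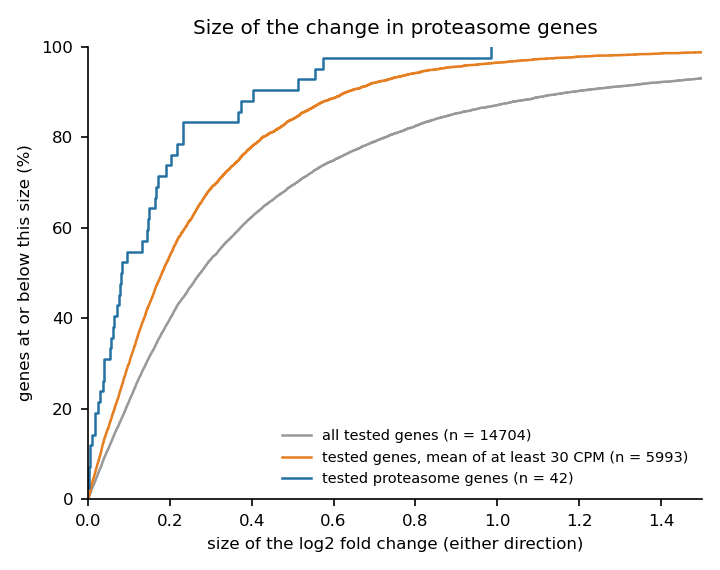
Cumulative share of genes (y axis, percent) by size of the log2 fold change in either direction (x axis) for the 42 tested proteasome genes, the 5993 tested genes with a mean of 30 CPM or more and all 14704 tested genes. The proteasome curve lies to the left, with a median size of 0.0819, against 0.181 and 0.275.

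The other 8 members had too few reads to be tested, and for 6 of them the counts say little about the transcript. PSMB3, a constitutive beta subunit, held 9, 8 and 12 reads in control and 10, 12 and 11 reads in inactivated libraries. PSMC4, an ATPase that every proteasome needs, held 0, 1 and 1 reads against 0, 4 and 3. PSMB8, PSMB9 and PSME1 were listed at 0 in all libraries, and PSME2 held 0, 1 and 6 reads against 3, 5 and 7. All 6 have further copies in the table on alternate loci of the assembly, and all 6 lay below 1 CPM, against 2 of the 44 members without such a copy. Of 1584 protein-coding genes with an alternate copy, 1410 (89.0%) were below 1 CPM, against 39.5% of 17960 without. The treatment of reads that align to several places is not stated in these sources, so no direction and no absence can be read for these genes, the PA28 subunits PSME1 and PSME2 included. The other two, PSMA8 of the testis proteasome and PSMB11 of the thymus proteasome, have no alternate copy. PSMA8 had 0 reads in every library and PSMB11 had 1 read in 1 control library. A count of 0 allows up to 3 counts, which is 0.0605 to 0.0903 CPM by library. A further 53 pseudogenes named in RefSeq belong to 22 members, 20 of them tested, and have no row of their own in the count table, so reads shared with them could not be followed.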

How the data were processed

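The labels' protocols give enrichment of mRNA from total RNA, a KAPA library kit and 50 bp paired-end reads on a NovaSeq instrument. STAR 2.7.2b, featureCounts 1.6.3, DESeq2 1.36.0 and the build GRCh38.p14 stand in the submitters' processing notes, with no role given. What was deposited are whole-number counts for each gene and lane, without normalization. The deposited table also gives exon lengths in bases, another unit, used here for CPM per kb. Of 49677 genes, 26 without counts were left out.

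Lanes were summed per library. edgeR 4.0.16 fitted all 6 libraries (filterByExpr, minimum count 10 and minimum total 15, TMM, quasi-likelihood F test, two-sided, Benjamini-Hochberg over all genes tested, threshold 0.05), with a biological coefficient of variation of 0.0447. DESeq2 1.42.0 and limma 3.58.1 served as alternatives, beside other scalings, filters, lanes, a 1.2-fold null and each library left out. Libraries of 1 group differed by 3.17 to 13.6 in chi-square per degree of freedom, more than counting error alone gives. This cannot tell separate cultures from repeated preparations of 1 culture. Floors cover counting error only.

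The members and gene lists were chosen with earlier results of these data known. Values in every library are given for the 6 largest increases and 6 largest decreases past the threshold, the catalytic and inducible subunits, the activators, the inhibitor and POMP. From each related list up to 4 changed genes with the lowest p are named, or 2 by level, besides NFE2L1, DDI2, SEM1 and AKIRIN2. NGLY1 is named outside this rule. Some genes that this rule would name are not reported here. Promoter windows come from RefSeq on GRCh38.p14.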

Additional observations from a re-analysis of the deposited data

How the results depend on the processing

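The 7 larger increases (PSMB1, PSMC5, PSMD3, PSMD11, PSMD12, PSMG4 and PSME3) kept their direction and call in all 16 alternatives with a test, and 19 members passed in none of them. DESeq2, limma-voom, other scalings, filters, single lanes and leaving out each library gave between 16 and 21 changed members, against 18, and 34.3% to 65.9% of all genes. Against a 1.2-fold null, 7 members changed, 7 higher and 0 lower, so every lower call and those of PSMD4, PSMD5 and PSME4 were lost. Without the members on chromosomes 1, 6 and 17, 8 of 30 changed, 2 of them higher. Without those on chromosomes 6 and 17, an alternative chosen after seeing the data, 11 of 34 changed, 3 higher. After subtraction of the neighbours' median, a value with no test, PSMB1 (-0.223), PSMD3 (-0.0906), PSMD12 (-0.137) and PSMC1 (0.071) reversed. The call of PSMC1 was lost in lane 2 alone (adjusted p = 0.0745). PSMA5, PSMC2, PSMC3, PSMC6 or PSMD8 passed in 1 or more alternatives, among them PSMC2 without inactivated replicate 2 (adjusted p = 0.0198), PSMC3 without control replicate 1 (0.0339) or inactivated replicate 1 (0.0395), and PSMA5 and PSMD8 without inactivated replicate 1 (0.0499 and 0.0361). Of 120 counts for related lists, 9 moved by over 1.5 times, 6 of them against the 1.2-fold null (transcription and import 3, bound factors 1, p97 cofactors 3, COP9 3, eIF3 0, CCT 1). Adding alternate-copy rows left 18 changed, 10 higher and 8 lower. No paired analysis was possible because the library numbers in the labels are not shared between groups, and replicates 1 to 3 here only name the libraries of a group.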
